A study of Mus musculus with 6 samples.

Results

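Noradrenaline released by sympathetic nerve endings reaches leukocytes through adrenergic receptors. Beta receptors such as Adrb1 act through the stimulatory G protein alpha subunit (Gnas) on adenylyl cyclases such as Adcy7, which make cAMP, while the alpha-2A receptor Adra2a couples to inhibitory G proteins and lowers cAMP. The receptor kinase Grk2 and the beta-arrestins Arrb1 and Arrb2 switch activated receptors off, and cAMP acting through PKA and CREB induces Crem, whose short ICER products repress CREB targets, and Pde4b, which breaks cAMP down. These 9 genes were chosen by name as receptors, desensitisation proteins, signal transducers and cAMP-induced genes, and 9 of 9 were found among the 55335 genes of the count table. All 9 passed the filter on low counts and are among the 14849 genes tested.

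RNA was sequenced from CD11b+ cells that flow cytometry had sorted from the spleens of wild-type (WT) mice, in 2 groups of 3 biological replicates. The MI group is read here as mice with myocardial infarction, and the MI+RDN group as mice with the same injury and renal denervation, the ablation of the nerves of the kidney. Both groups carry the injury, and no group without it is among the samples used here. The sources used here do not give strain, age, sex, the time after injury, the method of denervation, or whether a replicate is 1 animal or a pool. P-values measure the spread between these libraries. The comparison asks whether cutting the renal nerves alters splenic myeloid cells after cardiac injury, and the members ask it of the machinery with which such cells would sense nerve-derived noradrenaline.

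Library totals ran from 21663440 to 28013900 counts. Itgam, the gene of the CD11b sort marker, stood at 1087, 1301 and 1011 CPM (a gene's counts relative to the TMM-adjusted size of its library) in MI and at 1666, 1638 and 1489 CPM in MI+RDN. All MI+RDN libraries were above all MI libraries for this sort marker, as they were for the summed neutrophil markers. The log2 fold change of Itgam was 0.50 (edgeR adjusted p = 0.109), and DESeq2 gave an adjusted p of 0.00396, the lowest of its alternatives, which reached up to 0.276. In bulk RNA of a sorted pool, fewer cells of a type and less RNA per cell cannot be told apart. Summed marker levels of several cell types did not overlap between the groups. The 13 neutrophil markers summed to 14840 to 23310 CPM in MI and to 27312 to 48551 CPM in MI+RDN, with 13 of 13 on the higher side in MI+RDN. Taken singly, Mpo, Elane, Cxcr2, Csf3r, Ngp, Ltf and Camp overlapped between the groups, and the other neutrophil markers did not. Ngp stood at 4784, 11481 and 1385 CPM in MI+RDN replicates 1 to 3, with replicate 3 below every MI library. The 9 dendritic cell markers summed to 1534 to 2181 CPM in MI and 933 to 1050 CPM in MI+RDN, and the 10 B cell markers to 492 to 757 and 255 to 410 CPM, with every gene of both lists on the lower side. No marker in any of these 3 lists was at 0 in all libraries, and the part of these levels in the values of the members was not tested.

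None of the 9 members passed the test of MI+RDN against MI. By edgeR's quasi-likelihood test with Benjamini-Hochberg (BH) adjustment over all tested genes, 0 of 9 passed at 0.05, where 1.01% of all tested genes did (0.296% higher and 0.714% lower in MI+RDN). At an unadjusted p under 0.05 there were 2 of 9 (Arrb2 and Adrb1), beside 19.9% of all tested genes. The DESeq2 Wald test called 1 of 9, Arrb2, with 8.02% of genes called, and limma-voom called 0 of 9, with 0.748% called. The libraries of the groups did not overlap for 3 of 9 members, with MI+RDN above for Adrb1 and Arrb2 and below for Adcy7, and 26.2% of all tested genes were without overlap (12.4% with MI+RDN above and 13.7% below). The median log2 fold change over the members was 0.054, and over all tested genes 0.0080.

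**Figure D1:**
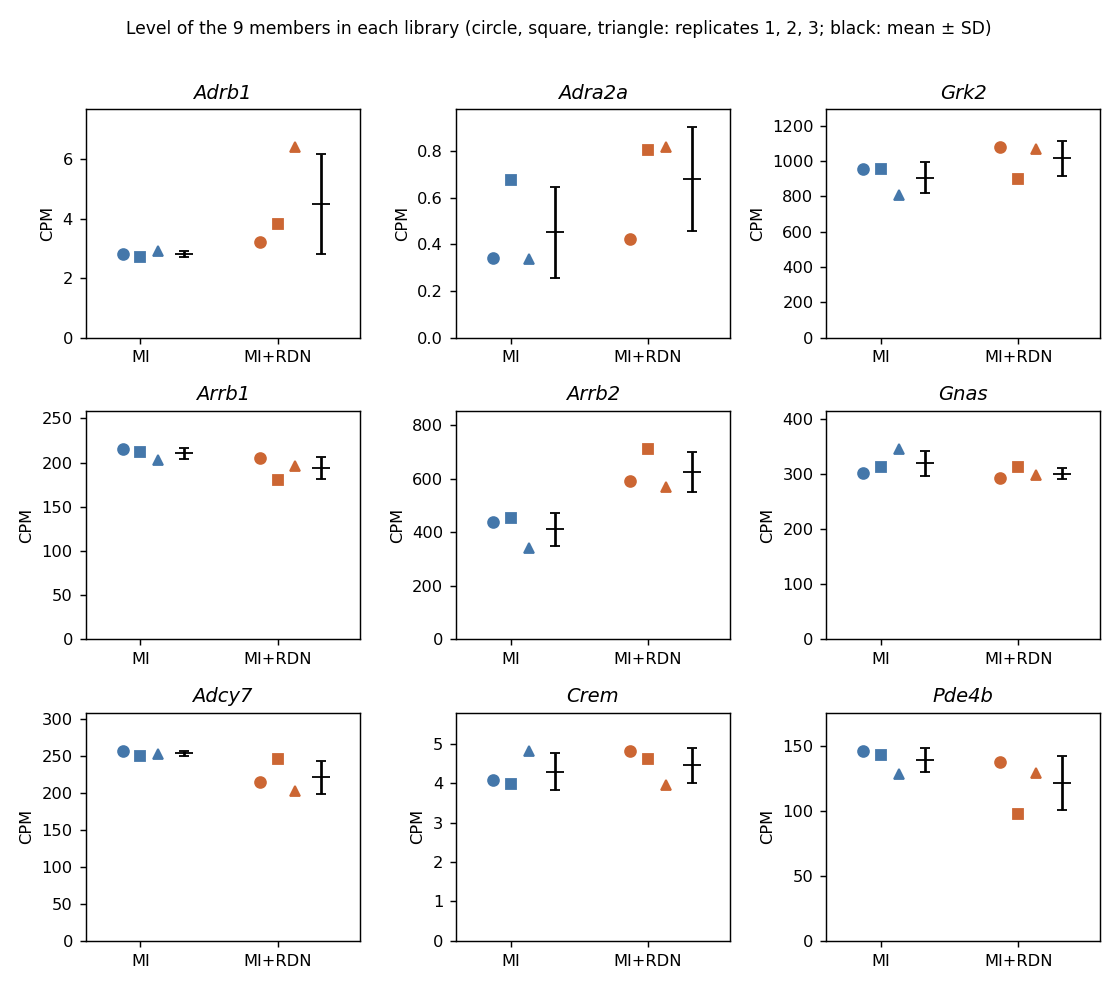
Level of each of the 9 members in CPM (vertical axes, from 0) in the 3 MI libraries (blue) and the 3 MI+RDN libraries (orange); circles, squares and triangles are replicates 1, 2 and 3, and the black bars give mean ± SD. The Arrb2 points of MI+RDN (570.0 to 710.4 CPM) lie above those of MI (341 to 452 CPM), while those of Gnas, Crem, Grk2, Arrb1, Pde4b and Adra2a overlap.

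Levels between members were compared per kilobase of exon (RPKM, CPM over the length of a gene's merged exons). In MI the order was Grk2 (202 ± 19.6 RPKM, SD, n = 3), Arrb2 (144 ± 21.3), Adcy7 (37.6 ± 0.483), Gnas (28.6 ± 2.03), Arrb1 (18.8 ± 0.555), Pde4b (13.2 ± 0.877), Adrb1 (0.831 ± 0.0309), Crem (0.728 ± 0.0782) and Adra2a (0.0934 ± 0.0404). Grk2 stood above 98.4% of all tested genes on this scale, and Adra2a above 1.32%. Adrb1 and Crem overlapped between libraries in MI and so were not ordered there, whereas all other neighbours were separate. In MI+RDN the neighbours that overlapped were Grk2 (227 ± 22.4 RPKM) and Arrb2 (219 ± 26.5), and Adrb1 lay above Crem in every library. Merged exons overstate the length of genes with many transcripts. With the longest coding transcript as length, a choice made after seeing the data, Gnas came before Adcy7 (80.9 against 42.6 per kilobase in MI), Pde4b before Arrb1 (32.3 against 29.5) and Crem before Adrb1 (1.46 against 0.952), and with the median coding transcript Adcy7 came after Gnas, Arrb1 and Pde4b.

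The receptors named as members were expressed at low levels. Adrb1, the beta-1 receptor best known from heart muscle (ENSMUSG00000035283), had 66, 60 and 78 counts in MI replicates 1 to 3 and 84, 105 and 149 in MI+RDN. This made 2.81, 2.71 and 2.91 CPM in MI and 3.23, 3.84 and 6.40 CPM in MI+RDN. Every MI+RDN library was above every MI library, and MI+RDN replicate 3 stood well above the other two. Adrb1 had a log2 fold change of 0.67 (SE 0.29, 95% interval 0.0077 to 1.34) and did not pass (edgeR adjusted p = 0.246). Without MI+RDN replicate 3 the log2 fold change was 0.31. Within MI the Adrb1 libraries varied by 3.72% (coefficient of variation), and within MI+RDN by 37.5%, against medians over all tested genes of 12.5% and 13.7%.

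Adra2a, which encodes the alpha-2A receptor (ENSMUSG00000033717), was near the limit of detection. It had 8, 15 and 9 counts in MI and 11, 22 and 19 in MI+RDN, or 0.341, 0.676 and 0.336 CPM and 0.423, 0.804 and 0.817 CPM. The groups overlapped, since MI replicate 2 stood above MI+RDN replicate 1. Its log2 fold change of 0.60 had an interval from -0.51 to 1.71, so that at this depth levels from 1.42-fold lower to 3.27-fold higher lay within it (edgeR adjusted p = 0.523). The number of Adra2a counts for each Adrb1 count, computed with a prior count of 2, was 0.147, 0.274 and 0.138 in MI and 0.151, 0.224 and 0.139 in MI+RDN. In both groups the second replicate had the highest ratio, and the ranges overlapped.

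Most other adrenergic receptor genes were at or near 0. Of the 9 receptor genes listed, 4 (Adra1d, Adra2b, Adra2c and Adrb3) had 0 counts in all libraries, where a count of 0 allows up to 3 counts, or 0.1096 to 0.1353 CPM in a library. Adra1a and Adra1b had 2 counts each, in 1 MI+RDN library each.

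The promoters of the members were searched for the letters that CREB family factors bind, since Crem and Pde4b are named as members for their induction through such sites. Of the 9 members, 5 had an entry in the RefSeq promoter table (GRCm38.p6, 250 bases before to 50 after each start), with 13 windows in all. Grk2, Arrb1, Arrb2 and Crem were not matched. The cAMP response element TGACGTCA was in 0 of these 13 windows, where 1.79% of all windows hold it. The half-site TGACG, on either strand and including those inside the full element, was in 7 of 13 windows and in 5 of 5 members. It is held by 20.8% of all windows and 23.0% of all genes, but these shares are not like for like. Overlapping windows of Gnas hold the same half-site and are counted separately. Adcy7, Gnas and Pde4b each have several windows, while all 27025 genes together have 32851. Stretches from the 4 members with 1 such half-site are given 5′ to 3′ on the plus strand, with the half-site in capitals (CGTCA is the half-site read from the other strand).
Adrb1, chr19:56721982-56722076: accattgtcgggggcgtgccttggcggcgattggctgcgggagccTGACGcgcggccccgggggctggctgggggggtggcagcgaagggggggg
Adra2a, chr19:54045145-54045239: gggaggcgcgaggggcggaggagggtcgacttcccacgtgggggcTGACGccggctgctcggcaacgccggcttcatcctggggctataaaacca
Adcy7, chr8:88282919-88283013: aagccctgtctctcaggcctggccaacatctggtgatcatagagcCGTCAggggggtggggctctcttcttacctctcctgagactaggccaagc
Pde4b, chr4:102421476-102421570: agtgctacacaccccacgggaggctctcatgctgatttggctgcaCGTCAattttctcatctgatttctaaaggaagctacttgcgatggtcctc

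The half-site of Adrb1 begins 90 bases before the RefSeq start and that of Adra2a 69 bases before it, in windows of 72.3% and 68.7% GC. In the first of several windows of Adcy7 and of Pde4b it begins 28 and 34 bases before the RefSeq start. The other windows of these 2 genes held none. A match is a description of letters, and no binding was measured here.

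Among the desensitisation proteins, Arrb2 was the member with the lowest p. Arrb2 (ENSMUSG00000060216), the beta-arrestin that binds phosphorylated receptors and ends G protein coupling, stood at 439, 452 and 341 CPM in MI and at 592, 710.4 and 570.0 CPM in MI+RDN. All MI+RDN libraries were above all MI libraries, with MI replicate 3 the lowest and MI+RDN replicate 2 the highest. Arrb2 was 1.52 times as high in MI+RDN (log2 fold change 0.60, SE 0.15, interval 0.27 to 0.94) and did not pass by edgeR (Benjamini-Hochberg adjusted p = 0.0819, the 589th lowest p of 14849 genes). DESeq2 gave a Benjamini-Hochberg adjusted p of 0.00264, and over all alternatives the adjusted p ranged from 0.00264 to 0.218. The summed neutrophil markers ranked the 6 libraries in the same order as Arrb2, from MI replicate 3 through MI replicates 1 and 2 and MI+RDN replicates 3 and 1 to MI+RDN replicate 2, and their part in the Arrb2 difference was not tested.

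Arrb1 (ENSMUSG00000018909), the other ubiquitous beta-arrestin, lay slightly lower in MI+RDN. It stood at 215, 212 and 203 CPM in MI and 205, 179.9 and 197 CPM in MI+RDN, and the groups overlapped. The log2 fold change of Arrb1 was -0.12 with an interval of -0.32 to 0.086, that is from 1.25-fold lower to 1.06-fold higher (edgeR adjusted p = 0.493). The number of Arrb2 counts for each Arrb1 count, a value within a library that no scaling factor touches, was 2.04, 2.13 and 1.68 in MI and 2.89, 3.95 and 2.90 in MI+RDN. The groups did not overlap, and the mean log2 ratio was 0.95 ± 0.18 in MI against 1.68 ± 0.26 in MI+RDN (SD, n = 3), a difference of 0.73. In an exact two-sided permutation test this gave p = 0.1, the smallest that 3 against 3 libraries allow, and 0.4 after Benjamini-Hochberg adjustment over 4 ratios tested in this way.

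**Figure D2:**
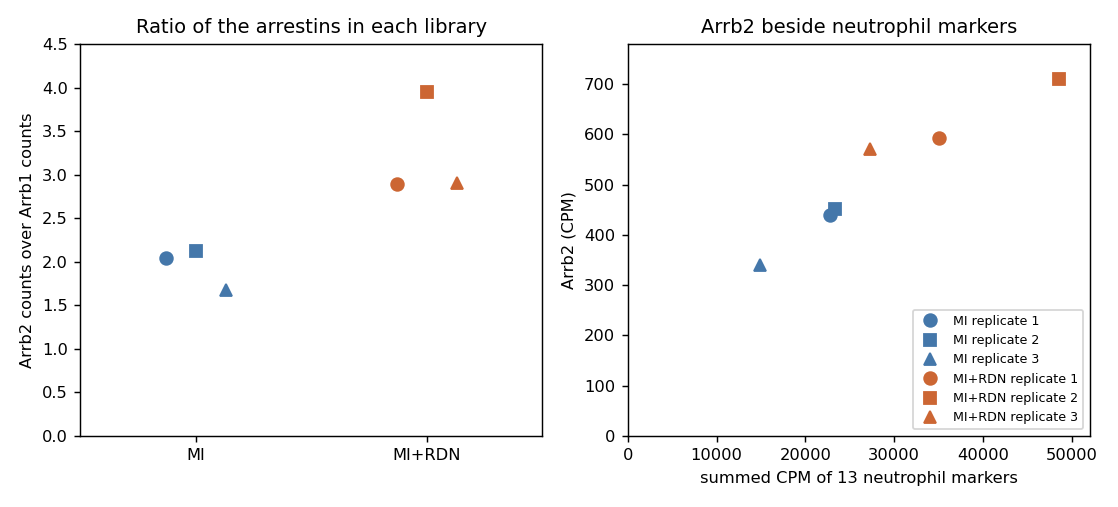
Left, Arrb2 counts per Arrb1 count in each library, where MI lies between 1.68 and 2.13 and MI+RDN between 2.89 and 3.95. Right, Arrb2 in CPM (vertical axis) against the summed CPM of 13 neutrophil markers (horizontal axis), 1 point for each library; both measures rank the 6 libraries in the same order.

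Grk2 (ENSMUSG00000024858), the kinase that phosphorylates activated beta receptors, was the most abundant member. Its libraries stood at 957, 955 and 804 CPM in MI and at 1077, 899.7 and 1069 CPM in MI+RDN. MI+RDN replicate 2 lay within the MI range. The log2 fold change was 0.16 (interval -0.13 to 0.46, edgeR adjusted p = 0.513), and it was 0.028 without scaling factors. Of the summed level per kilobase of the 5 receptor kinases, Grk2 took 64.4 ± 2.38% in MI against 66.6 ± 2.50% in MI+RDN (SD, n = 3). Its closest relative Grk3, which acts on the same receptors, stood at 328, 343 and 375 CPM in MI and 215, 255 and 244 CPM in MI+RDN, and the groups did not overlap. With a log2 fold change of -0.55 (SE 0.10) Grk3 did not pass in the main test (edgeR adjusted p = 0.0548), and it did without scaling factors, at a mean of at least 5 CPM, by DESeq2, by robust edgeR and in the fit lacking mitochondrial, haemoglobin and antigen receptor genes (0.000313 to 0.0456). Grk6, a kinase prominent in leukocytes, stood at 227 ± 15.2 CPM in MI against 291 ± 35.4 in MI+RDN (SD, n = 3), also without overlap and without passing.

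Between receptor and cAMP, both members had slightly lower means in MI+RDN, and neither passed. Gnas (ENSMUSG00000027523), the stimulatory alpha subunit, stood at 301, 313 and 345 CPM in MI and 292, 312 and 297 CPM in MI+RDN. The groups overlapped, and the interval of its log2 fold change (-0.09, from -0.31 to 0.13) runs from 1.24-fold lower to 1.09-fold higher (edgeR adjusted p = 0.631). Gnas is a compound locus, and the antisense genes Nespas and Gm20721, which share exon bases with it, had at most 5 and 6 counts in a library. Per kilobase, Gnas took 7.98 ± 1.13% of 7 alpha subunits in MI against 6.15 ± 0.427% in MI+RDN, and the inhibitory subunit Gnai2 took 77.1 ± 0.756% and 79.7 ± 1.03% (SD, n = 3). As in all family shares given here, length was that of merged exons. For Gnas this is 11186 bases, while its longest coding transcript has 3947, and shares with other lengths were not computed. Gnai2 stood at 1049 ± 79.8 CPM in MI against 1317 ± 55.6 in MI+RDN, without passing (edgeR adjusted p = 0.173), while DESeq2 gave 0.0295.

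Adcy7 (ENSMUSG00000031659), the adenylyl cyclase known as the main form of blood cells, stood at 257, 250.3 and 253 CPM in MI and 214, 246 and 203 CPM in MI+RDN. The groups did not overlap, though MI+RDN replicate 2 lay close below MI. Its libraries varied by 1.28% within MI, where 1.18% of tested genes varied less, and by 10.04% within MI+RDN, where 35.6% did. The log2 fold change was -0.20 (SE 0.098, interval -0.42 to 0.030, edgeR adjusted p = 0.310). Adcy7 took 94.0 ± 0.536% of the summed level per kilobase of the 10 adenylyl cyclases in MI against 94.8 ± 0.736% in MI+RDN (SD, n = 3). Its log2 count ratio to the other 9 was 4.15 ± 0.14 in MI against 4.40 ± 0.23 in MI+RDN (exact two-sided permutation p = 0.3, n = 3).

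Neither cAMP-induced member passed the test. Crem (ENSMUSG00000063889) stood at 4.09, 3.97 and 4.82 CPM in MI and 4.81, 4.60 and 3.95 CPM in MI+RDN. The groups overlapped over nearly their whole ranges, and the log2 fold change of 0.054 had an interval of -0.40 to 0.50 (edgeR adjusted p = 0.905). Its sign turned without scaling factors (-0.086) and without MI+RDN replicate 1 (-0.00088). The counts do not separate full-length Crem from the ICER transcripts, and Gm6225, which shares exon bases with Crem on the other strand, had 14 to 64 counts. Pde4b (ENSMUSG00000028525), the phosphodiesterase that limits cAMP in monocytes and neutrophils, stood at 146, 143 and 129 CPM in MI and 137, 97.7 and 129 CPM in MI+RDN. MI+RDN replicate 2 was the lowest library and the other MI+RDN libraries lay inside the MI range. The log2 fold change of Pde4b was -0.20 (interval -0.51 to 0.11, edgeR adjusted p = 0.454), and -0.080 without MI+RDN replicate 2. Pde4b took 83.0 ± 3.50% of the summed level per kilobase of the 4 Pde4 genes in MI against 86.5 ± 3.55% in MI+RDN (SD, n = 3). Its log2 count ratio to the other 3 was 2.71 ± 0.37 and 3.11 ± 0.42 (exact two-sided permutation p = 0.2, n = 3).

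**Figure D3:**
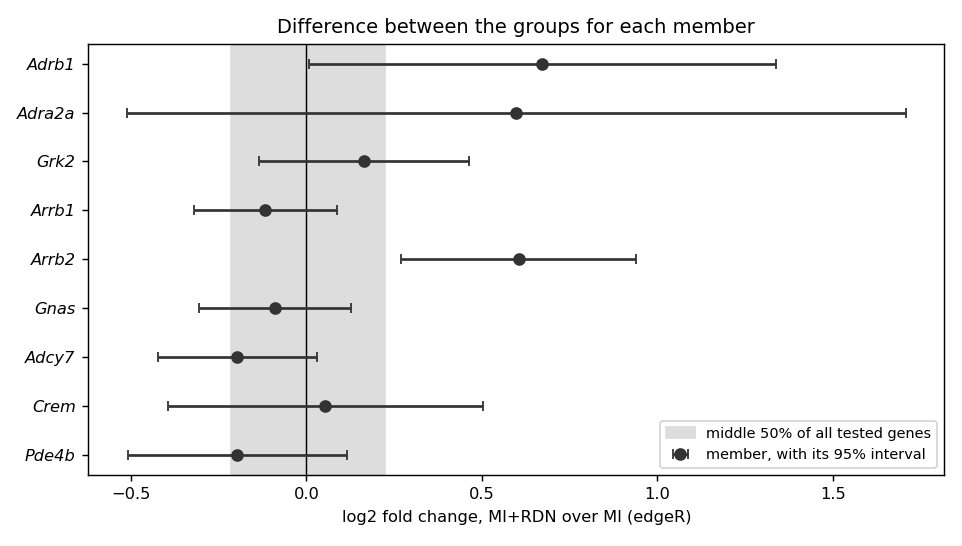
Log2 fold change of each member, MI+RDN over MI (horizontal axis), as a point with its 95% interval from the edgeR fit; the grey band is the middle 50% of all 14849 tested genes (-0.22 to 0.22). The intervals of Adrb1 (0.0077 to 1.34) and Arrb2 (0.27 to 0.94) lie above 0, those of the other 7 members include it, and no member passed after adjustment over all genes.

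Across the 6 libraries, correlations between members ran from strongly negative to strongly positive. Of 36 pairs, the highest correlation of log2 CPM was that of Arrb1 with Pde4b (Pearson r = 0.97, and 0.99 after group means were removed), and the lowest was that of Grk2 with Gnas (r = -0.94, and -0.91). For Crem with Pde4b, both named for induction by cAMP, r was -0.39. For Adrb1 with Adra2a it was 0.64. These values describe 6 libraries that share their scaling factors and fall into 2 groups. Among 11186 tested genes (11187 for Adra2a) with a mean of at least 1 CPM, those most like Adrb1 were Oxa1l (r = 0.997), H2-K1 (0.995) and Pex16 (0.988), and those most like Adra2a were Cdk10 (0.987), Serpina3f (0.979) and Wfikkn1 (0.968). Lbhd1 (0.984), Qser1 (0.976) and Arcn1 (0.971) came closest to Crem, and Golga4 (0.994), Apc (0.989) and Sel1l (0.988) to Pde4b. Of the 11186 genes compared (11187 for Adra2a), 78 reached r = 0.9 with Adrb1, 32 with Adra2a, 50 with Crem and 105 with Pde4b. How many genes would reach this r by chance over 6 libraries was not computed, so these likenesses are a description only.

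The wider pathway was described with 13 lists of 163 genes, of which 103 were tested, 9 members included. By edgeR 2 of these 103 passed, both lower in MI+RDN (background 1.01%), and in 29 of 103 the groups did not overlap (background 26.2%). Akap2, one of 11 tested A-kinase anchoring proteins, which tether PKA to its targets, fell 3.25-fold from 6.51 ± 1.24 to 2.005 ± 0.535 CPM (SD, n = 3; edgeR adjusted p = 0.0437). Rgs12, one of 8 tested RGS proteins, which speed the shut-off of G proteins, fell 1.94-fold from 16.0 ± 1.604 to 8.27 ± 1.27 CPM (SD, n = 3; adjusted p = 0.0462). Neither passed with any 1 library left out (adjusted p = 0.0599 to 0.146 for Akap2 and 0.0609 to 0.150 for Rgs12) or without a filter. Rgs12 also did not pass with DESeq2 size factors (0.0501) or the replicate block (0.0551). Both genes were lower beside the dendritic, B and T cell markers, whose part in them was not tested. The 10 T cell markers summed to 99.6 to 129 CPM in MI and 42.3 to 62.1 in MI+RDN, 10 of 10 on the lower side, with none at 0 in all libraries.

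Among receptors, 0 of 10 tested genes of other Gs-coupled receptors passed, with 7 positive and a median log2 fold change of 0.11. The histamine receptor Hrh2 stood at 128 ± 16.7 CPM in MI against 151 ± 59.8 in MI+RDN, with MI+RDN replicate 1 at 220 CPM, and the proton-sensing Gpr65 at 76.2 ± 8.38 and 79.8 ± 6.25 (SD, n = 3). Of 22 receptors for other nerve transmitters 5 were tested and 0 passed, and 11 had 0 counts in all libraries, among them the acetylcholine receptor Chrna7 and the neuropeptide Y receptors Npy1r, Npy2r and Npy5r. The muscarinic receptor Chrm3 stood at 37.0 ± 8.62 and 37.4 ± 10.02 CPM and Ramp1, part of the CGRP receptor, at 31.7 ± 2.09 and 34.9 ± 2.52 (SD, n = 3). The noradrenaline synthesis enzymes Th, Dbh and Pnmt had 0 counts in all libraries and the transporter Slc6a2 at most 2. The breakdown enzyme Maoa stood at 0.609 ± 0.451 and 1.10 ± 0.508 CPM, and 0 of 4 tested genes of that list passed.

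**Figure D4:**
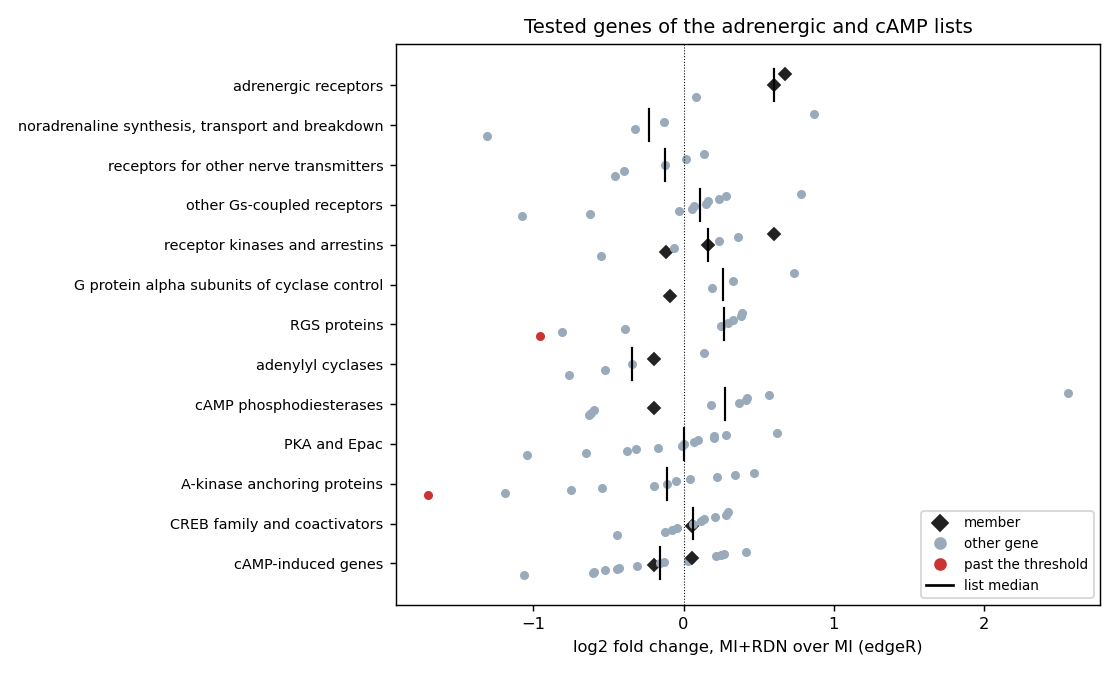
Log2 fold change (horizontal axis, MI+RDN over MI) of every tested gene in the 13 lists; diamonds are members, grey points other genes, red points those past the threshold and black bars the list medians. The 2 red points are Rgs12 (-0.96) and Akap2 (-1.70), and the point near 2.56 is Pde2a.

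Downstream of cAMP, 0 of 13 tested genes of the PKA and Epac list passed, with a median log2 fold change of 0.0017. In it Rap1b, a small GTPase that Epac activates, stood at 556 ± 43.3 CPM in MI against 639 ± 74.1 in MI+RDN, and Prkar1a, a regulatory subunit of PKA, at 201 ± 8.96 and 211 ± 9.08 (SD, n = 3). The regulatory subunit Prkar2b, named after its values were seen, stood at 27.5 ± 2.08 and 42.3 ± 6.01 CPM without overlap (edgeR adjusted p = 0.0634). It passed in 3 of the alternative fits. In this list the groups did not overlap for 5 of 13 tested genes, beside 26.2% of all tested genes. MI+RDN lay above for 1 of them, Prkar2b, and below for the other 4, among them the catalytic subunits Prkaca and Prkacb. Of the CREB family and its coactivators 0 of 11 passed (median 0.064), where the coactivator Ep300 stood at 287 ± 41.9 and 310 ± 47.9 CPM and the CREB-restraining kinase Sik1 at 254 ± 57.1 and 187 ± 38.0. Of 17 tested cAMP-induced genes 0 passed, with 7 positive, 10 negative and a median of -0.16. The immediate early genes Fos and Junb stood at 1619 ± 436 and 1456 ± 362 CPM in MI and at 1882 ± 92.6 and 1757 ± 190 in MI+RDN. Nr4a3, a nuclear receptor induced by cAMP and by other signals, named after its values were seen, stood at 4.60, 4.64 and 5.61 CPM in MI and 2.66, 2.27 and 2.19 CPM in MI+RDN (edgeR adjusted p = 0.0571). Nr4a3 passed in 4 of the alternative fits.

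The tested cyclases and phosphodiesterases, with the members Adcy7 and Pde4b included in the counts and medians, did not share 1 direction. Of 5 tested cyclases 0 passed and 4 were negative (median -0.34), with Adcy3 at 5.99 ± 0.800 and 3.52 ± 0.714 CPM and Adcy6 at 3.61 ± 0.569 and 2.52 ± 1.18 (SD, n = 3). Of 10 tested phosphodiesterases 0 passed, 6 were positive and 4 negative (median 0.28). The calcium-dependent Pde1b, the most abundant of them in CPM, stood at 174 ± 22.1 CPM in MI against 258 ± 55.5 in MI+RDN without overlap (edgeR adjusted p = 0.135), and DESeq2 gave 0.0270. Pde8a, a high-affinity cAMP enzyme, stood at 26.3 ± 2.87 and 35.2 ± 5.15 CPM. Pde7a, named after its values were seen, stood at 29.5 ± 3.29 and 19.1 ± 2.08 CPM, also without overlap (edgeR adjusted p = 0.0634), and passed in 4 of the alternative fits. Of the 4 tested alpha subunits 0 passed, 3 were positive, and Gnai3 stood at 175 ± 16.0 and 199 ± 13.7 CPM (SD, n = 3).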

How the data were processed

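The 6 libraries were made with a strand-specific TruSeq kit and sequenced on a NovaSeq, per the labels' protocols, and the submitters' processing notes name FastQC 0.11.2, STAR and build GRCm39. The authors deposited whole-number counts per Ensembl gene without normalisation. The counting tool, annotation release, strand setting and handling of shared reads are not stated in the sources used here. Symbols came from GENCODE M21 (GRCm38) for 55154 of 55335 gene IDs, and so did exon lengths. The 9 members and the gene lists were chosen with earlier results of these data known.

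The analysis used edgeR 4.0.16 under R 4.3.3 (filterByExpr, TMM, quasi-likelihood F test, Benjamini-Hochberg over 14849 genes, threshold 0.05). All 6 libraries entered without covariates. Standard errors were derived from F (the size of the log2 fold change divided by its square root). Log2 CPM and ratios used a prior count of 2. The common biological coefficient of variation was 20.7%, and replicate libraries differed by more than sampling noise (chi-square per gene of 12.2 to 92.5). Named genes were the members and, from each list, up to 4 passing genes or else the 2 most abundant that are no members, plus the 3 genes most like Adrb1, Adra2a, Crem and Pde4b, and Itgam. Exceptions are marked, and some genes that the rule takes are not reported here. Alternatives were other scalings and filters, DESeq2 1.42.0, limma 3.58.1 (voom), robust edgeR, the replicate block, a fit lacking mitochondrial, haemoglobin and antigen receptor genes, and leaving out single libraries. The procedure was tested on simulated data. Figures used matplotlib 3.10.9.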

Additional observations from a re-analysis of the deposited data

How the results depend on the processing

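Over 141 refits of single members, 138 kept their direction and their side of the threshold, 1 passed (Arrb2 by DESeq2, log2 fold change 0.61) and 2 turned (Crem, at -0.086 without scaling factors, where the median of all genes moved to -0.13, and -0.00088 without MI+RDN replicate 1). Adrb1, Adra2a and Crem could not be tested at a mean of at least 5 CPM. With each library left out, log2 fold changes ranged from 0.31 to 0.87 for Adrb1, 0.42 to 0.998 for Adra2a, 0.48 to 0.68 for Arrb2 and -0.00088 to 0.15 for Crem. The count of genes past the threshold, 150 in the main fit, was 475 without scaling factors (62 higher, 413 lower, against 44 and 106), 21 without a filter, 290 at a mean of at least 5 CPM, 1121 by DESeq2, 277 with robust edgeR, 277 without antigen receptor, haemoglobin and mitochondrial genes, and 0 to 67 with 1 library left out. Leaving out MI replicate 3 or MI+RDN replicate 1 gave 0 by edgeR, where 2084 and 2323 genes respectively had an unadjusted p below 0.05. These fits have fewer samples, and otherwise the cause was not tested. Same-numbered libraries did not deviate together (correlations 0.018, -0.065 and 0.064). This gave no sign of pairing by number, though so few libraries cannot exclude it. With the replicate block 87 genes passed, and 0 of 9 members. Without scaling factors the log2 fold change was -0.12 for Chrm3, -0.0029 for Ramp1, -0.067 for Gpr65, -0.066 for Prkar1a and -0.023 for Ep300, opposite in sign to the main fit. Chrm3 was also at -0.010 with upper-quartile factors and -0.014 at a mean of at least 5 CPM. With 1 library left out, ranges that cross 0 were -0.14 to 0.21 for Chrm3, -0.13 to 0.39 for Hrh2, -0.020 to 0.13 for Gpr65 and -0.0034 to 0.22 for Ep300. The difference in log2 ratio of Arrb2 to Arrb1 was 0.58 to 0.80, of Adcy7 to the other cyclases 0.14 to 0.38 and of Pde4b to the other Pde4 genes 0.24 to 0.63, while that of Adra2a to Adrb1 ranged from -0.29 to 0.24. The lowest counts among members, where counting error is widest, were those of Adra2a (8 to 22 a library).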

Other observations

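Pde2a, a phosphodiesterase that cGMP stimulates, had the widest interval of the 103 tested pathway genes and was named after its values were seen. It had 60, 377 and 34 counts in MI and 1662, 1514 and 50 in MI+RDN, or 2.56, 17.0 and 1.27 CPM and 64.0, 55.3 and 2.15 CPM. Only MI+RDN replicates 1 and 2 were high, and MI+RDN replicate 3 lay within the MI range. The log2 fold change of 2.56 had an interval of -0.21 to 5.33 (edgeR adjusted p = 0.283), and with 1 library left out it ranged from 2.05 to 4.42.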
